A study of Mus musculus with 12 samples.

Results

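The cytosolic ribosomal protein genes were followed across mouse lung tumours that carried or lacked MAVS and that were or were not exposed to an inhibitor of the kinase MPS1. Members were the protein coding rows of the deposited count table whose symbol is Rpl or Rps followed by a number, with an optional final a, x or l, or Rplp0 to Rplp2, or Rpsa. The rule found 81 genes among 45777 rows, 50 of the large subunit and 31 of the small subunit. Of these, 80 passed the filter on low counts and were tested among 17885 genes, and Rpl10l, with 2 counts in all 12 libraries together, was not. The 81 genes lie on 19 chromosomes, with at most 14 on one of them, chromosome 7. The rule leaves out Rps4l and Rpl6l, which match by symbol but are listed as pseudogenes, and ribosomal proteins with other names such as Rps3a1 and Fau.

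A ribosomal protein gene encodes 1 building block of the ribosome, and a cell needs all of them in like amounts for each new ribosome. The large subunit joins amino acids and carries the stalk that recruits translation factors, and the small subunit decodes the messenger RNA. The messenger RNAs are short and abundant, and most begin with a run of pyrimidines (C or T) called a terminal oligopyrimidine tract, through which the kinase mTORC1 controls their translation.

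Male 129S2/SvPasCrl mice, 8 weeks old, carried subcutaneous flank tumours of the mouse lung cancer line 393P. MAVS is the mitochondrial adaptor through which cytosolic RNA sensors switch on interferon genes, and MPS1 (gene Ttk) is the spindle checkpoint kinase. The 4 groups of 3 libraries each were MAVS knockout control, MAVS knockout with MPS1 inhibitor, MAVS reconstituted control and MAVS reconstituted with MPS1 inhibitor (MPS1i). Treated mice received BAY-1217389 at 5 mg/kg, 2 times daily for 2 days, tumours were taken on the following day, and the other groups are labelled as control, with Veh in their titles. The titles call the knockout groups Luc and the reconstituted groups MAVS, and the sources used here do not say what Luc stands for. The stated aim was to find expression changes of the tumour tissue after MPS1 inhibition that depend on MAVS. The genotype is listed with the injected cell line, the mice are described by strain alone, and the sources used here do not give how MAVS was removed or returned, or in how many clones. Nothing in the labels says that the 3 libraries of a group came from separate mice, so p-values measure the spread between these libraries, which may be technical.

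The starts of the genes are shown because the terminal oligopyrimidine tract is the sequence feature the family is known for. Windows of 40 bases before and 20 bases from the RefSeq transcription start (GRCm38.p6) are given 5′ to 3′ on the strand of the gene, with the longest unbroken run of C or T within 25 bases of the start in capitals. In Rps6, Rpl28, Rps27 and Rps18 the run spans the start. In Rpl4, Rps16, Rpl39 and Rpl39l it lies wholly before the start, outside the annotated transcript, and in Rpl3l after it. The run of Rpl39l goes on past the 25 bases searched, where its capitals begin. Rpl4 varied least over the libraries, Rps16 and Rpl39 had 2 of the 3 smallest p for the inhibitor in reconstituted tumours, and Rpl3l and Rpl39l are the paralogs that did not follow the others.
Rps6: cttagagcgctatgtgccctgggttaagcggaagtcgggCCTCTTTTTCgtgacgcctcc
Rpl28: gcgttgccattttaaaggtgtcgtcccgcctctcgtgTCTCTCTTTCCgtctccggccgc
Rps27: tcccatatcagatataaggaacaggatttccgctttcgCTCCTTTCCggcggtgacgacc
Rps18: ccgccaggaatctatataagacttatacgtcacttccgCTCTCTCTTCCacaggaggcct
Rpl4: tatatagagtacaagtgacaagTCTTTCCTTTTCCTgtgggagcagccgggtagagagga
Rps16: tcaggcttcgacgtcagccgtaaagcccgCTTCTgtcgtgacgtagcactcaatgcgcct
Rpl39: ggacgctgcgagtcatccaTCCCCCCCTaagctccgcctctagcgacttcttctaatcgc
Rpl3l: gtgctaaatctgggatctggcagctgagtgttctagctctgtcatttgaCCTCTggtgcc
Rpl39l: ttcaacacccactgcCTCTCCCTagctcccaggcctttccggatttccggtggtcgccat
In that order the windows lie at chr4:86857348-86857407 (minus strand), chr7:4792925-4792984 (plus strand), chr3:90213629-90213688 (minus strand), chr17:33955646-33955705 (minus strand), chr9:64173347-64173406 (plus strand), chr7:28350649-28350708 (plus strand), chrX:37085203-37085262 (minus strand), chr17:24727786-24727845 (plus strand) and chr16:10170188-10170247 (plus strand). Each covers the end of the promoter and the first bases of the first exon.

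Library totals ran from 52983715 to 69108411 counts, so 3 counts equalled 0.0434 to 0.0566 CPM (counts scaled to the same library total). Mavs itself measured 40.5, 42.5 and 45.7 CPM in knockout control tumours, 43.5, 39.4 and 41.0 CPM in knockout MPS1i tumours, 85.1, 68.9 and 59.1 CPM in reconstituted control tumours and 50.1, 53.8 and 62.8 CPM in reconstituted MPS1i tumours. Each reconstituted library lay above each knockout library. The labelled lung cancer cells were checked against 11 epithelial genes: Krt8, Krt18, Krt7, Epcam and Cdh1 were present in every library, whereas Nkx2-1 and Cldn7 were at 0 throughout. Esrp1 was at 0.173 CPM or below in each library, and 8 of the 11 passed the filter on low counts. Library 1 of the reconstituted MPS1i group stood apart from the other 11. It lay at -102.7 on the first principal component of all tested genes, which held 28.5% of the variance, against -28.7 to 48.6 for the others, and at -102.5 when the ribosomal protein rows were left out. Its 14 skeletal muscle markers summed to 3314.5 CPM against 7.30 to 894 CPM elsewhere, and its 12 fibroblast and pericyte markers to 3375 CPM against 8132 to 19655 CPM. The edgeR medians and counts of calls over all tested members are also given without it, or as a range over left-out libraries. Values of most single genes, fold ranges, medians by length, subunit and gene list, and the fit with the length trend removed include it.

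Ribosomal protein genes took, on average, the smallest share of counts in MAVS reconstituted control tumours. The share was 3.50%, 3.65% and 3.84% of a library's counts there (mean 3.66% ± 0.167, SD, n = 3), and each of these values lay below each MAVS knockout control library at 4.94%, 4.69% and 4.36% (4.66% ± 0.289, n = 3). With the MPS1 inhibitor the reconstituted libraries held 5.99%, 5.32% and 3.89% (5.07% ± 1.07, n = 3). Libraries 1 and 2 of that group were the highest of all 12, whereas library 3 was close to the highest reconstituted control. Knockout tumours given the inhibitor held 3.83%, 4.50% and 4.68% (4.34% ± 0.453, n = 3), a range that overlapped both control groups. In these bulk samples, fewer cells of a type and less RNA per cell cannot be told apart. Taking counts of red cell, muscle and mitochondrial genes out of the denominator gave means of 4.87%, 4.49%, 3.82% and 5.22% for the groups in the order knockout control, knockout MPS1i, reconstituted control and reconstituted MPS1i.

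**Figure D1:**
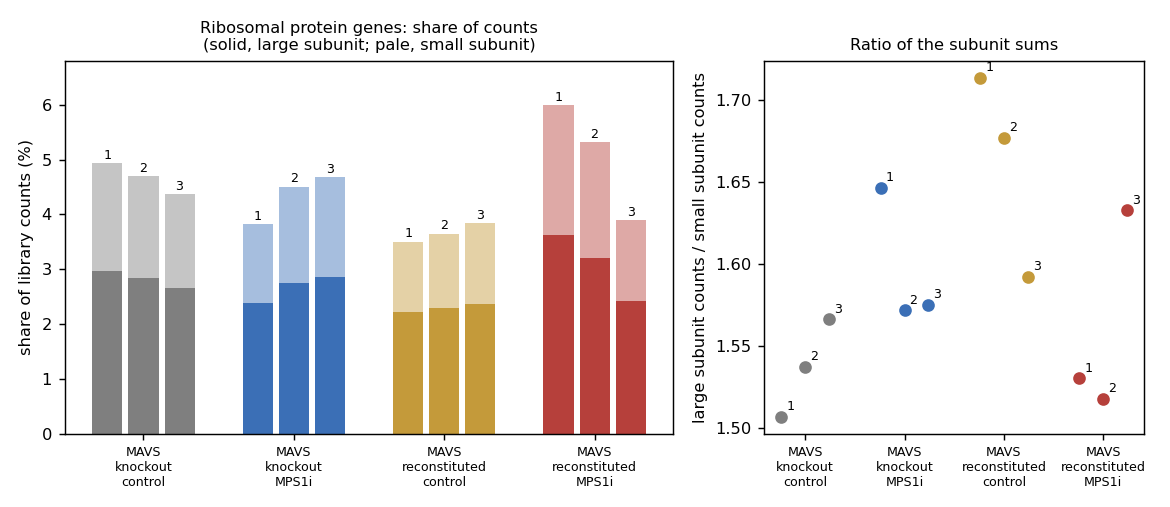
Share of each library's counts in ribosomal protein genes (left, %, bars from 0, with the large subunit solid and the small subunit pale) and the ratio of large to small subunit counts (right, points, axis not from 0). Numbers are the libraries of a group; reconstituted control libraries sit at 3.50% to 3.84%, and reconstituted MPS1i libraries 1 and 2 at 5.99% and 5.32%.

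The genes varied together from library to library. Set against each gene's own median over the 12 libraries, 79, 80 and 2 of the 80 tested genes lay above it in reconstituted MPS1i libraries 1, 2 and 3. In the reconstituted controls 2, 2 and 1 genes were above their median, and in the knockout controls 78, 76 and 13. Knockout MPS1i library 1 stood with the low libraries, with 1 gene above its median, while libraries 2 and 3 of that group had 68 and 78. Reconstituted MPS1i library 1 was the highest of the 12 libraries for 78 genes, and reconstituted control library 1 was the lowest for 54. Across the 77 genes above 20 CPM, the highest library exceeded the lowest by 1.35-fold (Rpl4) to 3.19-fold (Rpl37a), with a median of 1.98-fold. Within the reconstituted MPS1i group alone the median spread was 1.68-fold, against 1.24-fold, 1.3-fold and 1.15-fold within the knockout control, knockout MPS1i and reconstituted control groups.

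**Figure D2:**
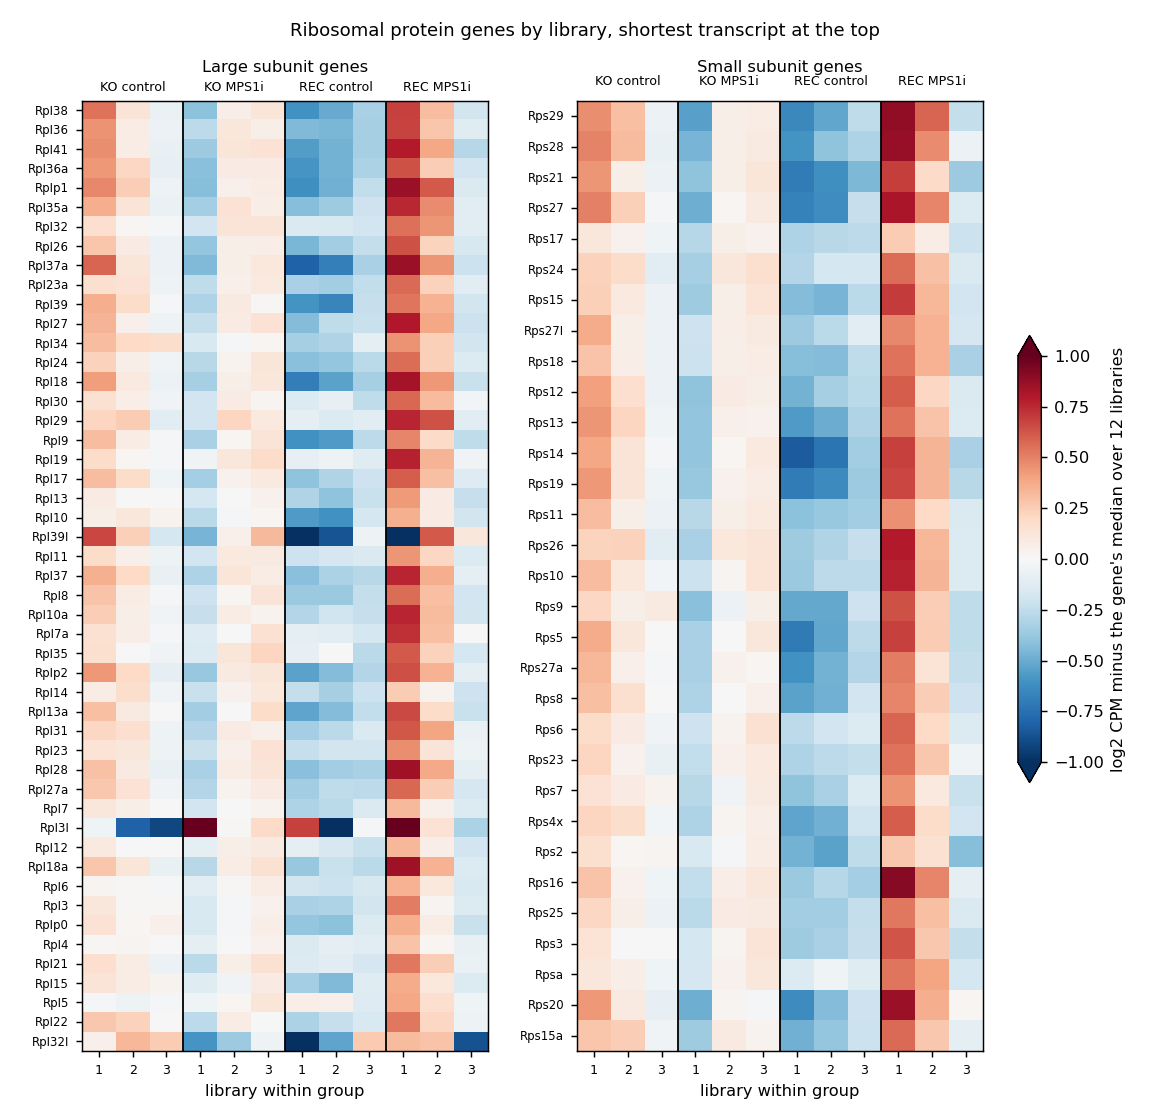
Log2 CPM of each tested ribosomal protein gene minus that gene's median over the 12 libraries (colour, scale stopped at -1 and 1), for the large subunit (left) and small subunit (right), with 1 row per gene, the shortest transcript at the top and Rpl32l, which has no annotated length, last. Columns are libraries 1 to 3 of each group (KO, MAVS knockout; REC, MAVS reconstituted); reconstituted MPS1i libraries 1 and 2 are red for nearly all genes and the reconstituted controls blue, with Rpl39l and Rpl3l as exceptions.

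By the edgeR estimate, all 80 tested ribosomal protein genes lay higher with the MPS1 inhibitor than without it in MAVS reconstituted tumours, and none passed the test. Rpl39l lay lower with limma-voom, and 15 of 79 lay lower with a trend by transcript length removed. Among the stalk proteins, which form the lateral arm that binds translation factors, Rplp1 measured 343, 378 and 443 CPM in reconstituted controls and 957, 806 and 476 CPM with the inhibitor. The groups did not overlap, although library 3 lay near the controls. Its log2 difference was 0.94 ± 0.239 (SE; adjusted p = 0.0729, edgeR quasi-likelihood test). It was 0.75 ± 0.198 for Rplp2, the partner of Rplp1, and 0.40 ± 0.136 for Rplp0, on which both are anchored. The genes with the smallest p were Rps16, Rpl39 and Rpl18. Rps16, a protein of the small subunit's head that reaches toward the decoding centre, measured 304, 324 and 312 CPM in controls and 741, 552 and 369 CPM with the inhibitor, a log2 difference of 0.82 ± 0.205. Rpl39, which lines the tunnel through which the new protein leaves, measured 93.8, 89.6 and 121 CPM against 205, 180 and 125 CPM (0.75 ± 0.188). Rpl18, a protein of the large subunit, measured 286, 319 and 366 CPM against 824, 624 and 397 CPM (0.93 ± 0.234). The inhibitor libraries of these 3 genes lay above all controls, with library 3 the lowest of them, and the edgeR adjusted p was 0.0729 for each.

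Members with other known roles had positive differences of varied size. Rpl5 and Rpl11, which carry 5S ribosomal RNA and can restrain the p53 regulator Mdm2, had log2 differences of 0.18 ± 0.108 and 0.36 ± 0.134. Rpl3, next to the peptidyl transferase centre, and Rpl10, which joins the large subunit late in its assembly, had 0.43 ± 0.140 and 0.54 ± 0.150. Rpl13a and Rpl32, both in wide use as reference genes for quantitative PCR, had 0.65 ± 0.202 and 0.49 ± 0.151. Of the small subunit, Rps6, the classical substrate of S6 kinase, had 0.44 ± 0.158, Rps19, the gene most often mutated in Diamond-Blackfan anaemia, had 0.86 ± 0.220, and Rps27a, made as a fusion with ubiquitin, had 0.62 ± 0.181. Rps29, Rps27 and Rps28, all very small proteins, had 0.95 ± 0.263, 0.94 ± 0.239 and 0.91 ± 0.230. Rpsa, also known as a laminin receptor, had 0.38 ± 0.153, and Rps4x, encoded on the X chromosome, 0.63 ± 0.183. Of these, Rpl11 and Rpl32 turned to -0.0848 and -0.11 when the trend by transcript length was removed.

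Over the 80 genes the median log2 difference was 0.59, against -0.01 over all genes tested, and 80 of 80 were positive, against 49.5% of all genes. The edgeR test called 0 of them at an adjusted p under 0.05, and it called 0% of all genes. At an unadjusted p under 0.05 edgeR gave 73 as higher, against 17.6% of all genes, and 59 had all 3 inhibitor libraries above all 3 controls, against 14.7%. An adjusted p under 0.1 was reached by 70, against 21.5% of all genes in either direction. DESeq2 called 71 as higher, against 13.7% of the genes to which it gave an adjusted p, and limma-voom called 0, with 76 and 73 at an unadjusted p under 0.05, against 11.9% and 17.1% of all genes. DESeq2 was run without the filter on low counts. Here and below, its shares at an unadjusted p are over the 27523 genes with a p, and its shares called are over the genes with an adjusted p. Leaving out reconstituted MPS1i library 3 gave 77 edgeR calls, against 15.8% of all genes called as higher, and a median of 0.77. Leaving out library 1 of that group, the one that stood apart, gave 0 calls and a median of 0.40.

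**Figure D3:**
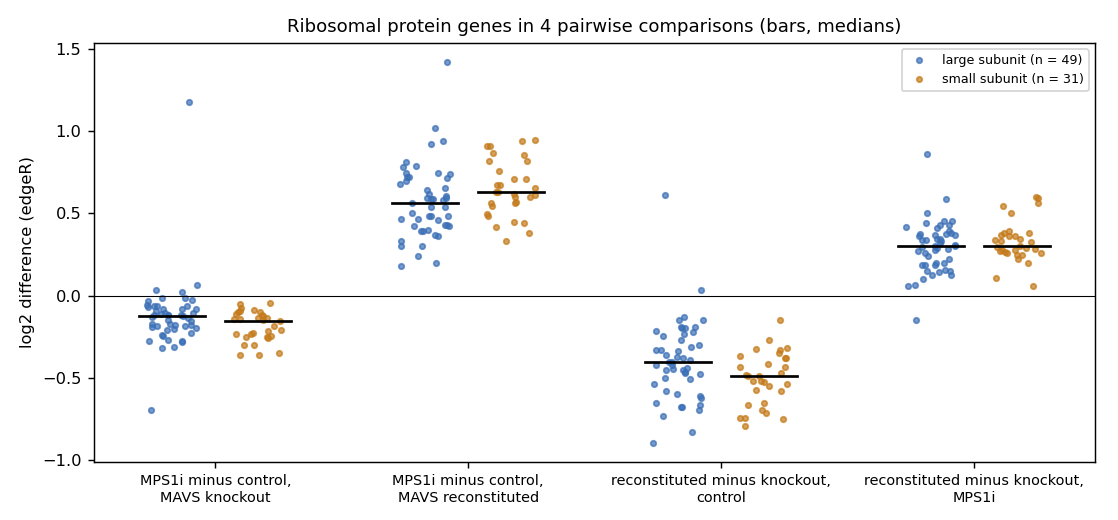
Log2 difference from edgeR of each tested ribosomal protein gene in 4 pairwise comparisons (vertical axis), with large subunit genes (n = 49) and small subunit genes (n = 31) as separate points and the medians as bars. For the inhibitor in reconstituted tumours all points lie above 0 (Rpl39l lay below 0 with limma-voom), and in the comparison of control tumours 78 of 80 lie below 0; no point passed an adjusted p of 0.05, and some of the comparisons share libraries.

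In control tumours, 78 of 80 ribosomal protein genes lay lower in MAVS reconstituted than in MAVS knockout libraries, against 49.6% of all genes. The reconstituted controls are the same libraries that the inhibitor was compared with above, so neither comparison supports the other. The genes with the smallest p were Rps13, Rpl39 and Rps19. Rps13, at the interface between the subunits, measured 391, 336 and 281 CPM in knockout controls and 195, 205 and 235 CPM in reconstituted controls, with a log2 difference of -0.67 ± 0.184 (SE; adjusted p = 0.162, edgeR). Rpl39 measured 182, 161 and 141 CPM against 93.8, 89.6 and 121 CPM (-0.67 ± 0.188). Rps19 measured 388, 314 and 279 CPM against 177, 185 and 223 CPM (-0.75 ± 0.220). For each of these 3 genes all reconstituted controls lay below all knockout controls. Rps14, a protein of the small subunit platform, had -0.80 ± 0.235, Rps2, at the entry of the messenger RNA channel, -0.49 ± 0.157, and Rps25, needed by several viral internal ribosome entry sites, -0.38 ± 0.156. The large subunit genes Rplp1, Rpl10 and Rpl13a had -0.68 ± 0.238, -0.50 ± 0.150 and -0.54 ± 0.201, and Rpl41, which encodes the smallest ribosomal protein, -0.63 ± 0.241. Rpl5 and Rpl3l were the genes with a positive difference. Rpl5 measured 1123, 1098 and 1121 CPM in knockout controls and 1195, 1182 and 1042 CPM in reconstituted controls, which overlap (0.03 ± 0.108).

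The median over the 80 genes was -0.44, against 0.00 over all genes. The edgeR test called 0 of them, against 0.14% of all genes. It gave 55 as lower at an unadjusted p under 0.05, against 9.89%, and 73 had all reconstituted controls below all knockout controls, against 15.5%. DESeq2 called 19 as lower, against 2.82% of the genes to which it gave an adjusted p, and limma-voom 0, with 59 and 55 at an unadjusted p under 0.05, against 7.07% and 9.54% of all genes. Over the libraries left out in turn, the median ran from -0.51 to -0.36 and the edgeR count stayed at 0. The 55 at an unadjusted p under 0.05 became 23 without knockout control library 1, against 5.26% of all genes, and 24 without reconstituted control library 1, against 5.62%. Without reconstituted control library 2 there were 31, against 6.26%, and without knockout control library 2 there were 37, against 6.96%.

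In MAVS knockout tumours the inhibitor went with small differences, and most groups overlapped. The median was -0.14, 76 of 80 genes were negative against 51.1% of all genes, and the edgeR test called 0, as it did for 0% of all genes. Without knockout MPS1i library 1 the median was -0.04 and 57 of 80 were negative, and without knockout control library 1 they were -0.06 and 72. At an unadjusted p under 0.05, edgeR, DESeq2 and limma-voom each gave 0 of the 80, where edgeR gave 0.654% of all genes as higher and 1.05% as lower. Rpl34, Rps13 and Rpl22 had the smallest p, with log2 differences of -0.28 ± 0.138, -0.30 ± 0.184 and -0.23 ± 0.142 (edgeR adjusted p = 1 for each). Rpl34, a large subunit protein, measured 79.8, 73.7 and 72.6 CPM in controls and 57.7, 63.4 and 65.2 CPM with the inhibitor, which do not overlap. Its value is uncertain, because rows of its pseudogenes held 339% of its own counts and reads of near-identical copies may be split between them. The same limit holds to a lesser degree for Rpl3 (82.0%), Rps13 (14.4%) and Rps2 (13.6%), and such rows held over 10% for 6 members in all. Rpl10, Rpl34 and Rpl32l had all inhibitor libraries below all controls, against 4.25% of all genes, and Rpl3l had them above, against 4.5%. Rps16 measured 481, 406 and 383 CPM in controls and 332, 412 and 427 CPM with the inhibitor, and Rplp1 733, 624 and 507 CPM and 392, 546 and 554 CPM; both overlap.

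Under the inhibitor, 79 of 80 genes lay higher in MAVS reconstituted than in MAVS knockout tumours, against 51.1% of all genes, with a median of 0.30. The edgeR test called 0, against 0.649% of all genes, with 11 higher at an unadjusted p under 0.05 against 10.7%, and the groups overlapped for all 80, while 10.9% of all genes had every reconstituted library above every knockout one. DESeq2 and limma-voom called 0 as well, against 4.34% and 0.57% of all genes as higher, with 13 and 7 members higher at an unadjusted p under 0.05, against 7.29% and 10.2%. Rps20 and Rps16, both of the head of the small subunit, and Rplp1 had the smallest p (0.60 ± 0.220, 0.50 ± 0.204 and 0.59 ± 0.237; edgeR adjusted p = 0.181 for Rps20). Without reconstituted MPS1i library 1 the median was 0.11, 68 of 80 were positive and 0 were higher at an unadjusted p under 0.05, against 6.5% of all genes. Without knockout MPS1i library 1 it was 0.19, again with 0 at that p, against 6.15%. With the trend by transcript length removed, 49 of 79 were positive, against 50.8% of all genes, with a median of 0.0433. Without reconstituted MPS1i library 3 the median was 0.47, and edgeR called 35 genes as higher, against 7.24% of all genes.

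The interaction tests whether the difference with the inhibitor was itself different between the genotypes, the comparison closest to the stated aim. It was positive for 80 of 80 genes, against 50.3% of all genes, with a median of 0.74. Rpl3l was negative with limma-voom, with the replicate number as a block and without knockout control library 1, reconstituted control library 2 or reconstituted MPS1i library 1, and Rpl5 without the last of these. With the trend by transcript length removed 16 of 79 were negative. The edgeR test called 0, against 0% of all genes, and 70 were higher at an unadjusted p under 0.05, against 13.6%. Rps13, Rps28 and Rps27 had the smallest p, with 1.01 ± 0.260, 1.26 ± 0.325 and 1.30 ± 0.337 on the log2 scale (edgeR adjusted p = 0.144 for each). DESeq2 called 45 as higher, against 5.54% of the genes to which it gave an adjusted p, and limma-voom 0, with 70 and 67 at an unadjusted p under 0.05, against 9.25% and 13% of all genes. Without reconstituted MPS1i library 3 edgeR called 73, against 10.7% of all genes, with a median of 0.92, and without library 1 it called 0 with a median of 0.55.

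The MAVS difference averaged over treatments had a median of -0.06, with 65 of 80 negative against 49.9% of all genes, and edgeR called 0 members, against 1.56% of all genes. At an unadjusted p under 0.05 edgeR, DESeq2 and limma-voom each gave 0, where edgeR gave 8.12% of all genes as higher and 6.97% as lower. The direction rested on 1 library: without reconstituted MPS1i library 3 the median was 0.02 and 34 of 80 were negative. Without library 1 of that group 78 were negative, with 13 lower at an unadjusted p under 0.05, against 8.04% of all genes. With a trend by transcript length removed, as described below for the other comparisons, 61 of 79 were negative and 15 lower at that p, against 9.44%. Rps2, Rpl14 and Rpl10 had the smallest p there (-0.22 ± 0.111, -0.14 ± 0.0868 and -0.16 ± 0.106). The inhibitor difference averaged over genotypes had a median of 0.22, with 79 of 80 positive against 49.3% of all genes, and edgeR called 0 members, against 0% of all genes. At an unadjusted p under 0.05 edgeR gave 5 as higher, against 4.13%, DESeq2 14, against 3.64%, and limma-voom 1, against 3.69%. The edgeR count was 75 without reconstituted MPS1i library 3, against 13.1% of all genes, 35 without knockout MPS1i library 1, against 6.73%, and 17 without knockout control library 1, against 6.16%. It was 0 without reconstituted MPS1i library 1 or knockout control library 2 or 3. Rps16, Rpl3l and Rpl28, a protein of the large subunit, had the smallest p (0.35 ± 0.144, 1.30 ± 0.538 and 0.33 ± 0.144). DESeq2 and limma-voom called 0 members in both averages. For the MAVS average they called 3.41% and 0.984% of all genes as higher and 2.29% and 0.458% as lower. For the inhibitor average each called 0% as higher, with 0.00363% and 0% as lower.

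The difference shifted with the length of the transcript, among ribosomal protein genes of up to 2000 bases and among other genes. Lengths are medians of the annotated transcripts of a gene, from 371 bases to 5179 bases over the 79 tested members with one and with a median of 791. For the inhibitor in reconstituted tumours the median log2 difference was 0.72 for the 22 members of up to 600 bases, 0.59 for the 33 of over 600 and up to 1000 bases and 0.42 for the 20 of over 1000 and up to 2000 bases. Other protein coding genes of the same lengths had medians of 0.59 (178 genes), 0.51 (731 genes) and 0.24 (3270 genes), falling to -0.03 over 2000 and up to 4000 bases and -0.27 above 4000 bases. In control tumours the MAVS difference was -0.60, -0.45 and -0.34 for members and -0.42, -0.28 and -0.13 for other genes of these lengths, with 0.02 and 0.13 for the longer genes. The interaction gave 0.96, 0.72 and 0.51 for members and 0.72, 0.59 and 0.29 for other genes. In these 3 bins and comparisons the members' median lay farther from 0 than that of the other genes. The longer members did not continue the order: the 3 of over 2000 and up to 4000 bases had medians of 0.48 for the inhibitor, -0.40 in control tumours and 0.71 for the interaction. Rps15a, the 1 member above 4000 bases, had 0.63, -0.53 and 0.86, where other genes of that length had the other sign. The place of Rps15a and of Rps20, which is among the 3 genes of the bin before, is uncertain. Their annotated lengths of 5179 and 3706 bases are far above those of the other members, with coding lengths of 390 and 357 bases.

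Single libraries were read by length as well. Over the 3 shorter bins the members' deviation came closer to 0 with length in 10 of the 12 libraries. It did not in knockout MPS1i library 3 (0.10 in each bin) or in reconstituted MPS1i library 3 (-0.16, -0.17 and -0.14). Members of up to 600 bases deviated from their mean by 0.69 in reconstituted MPS1i library 1, 0.34 in library 2 and -0.16 in library 3, and other short genes by 0.56, 0.32 and -0.13 on the log2 scale. In reconstituted controls such members deviated by -0.50, -0.44 and -0.26 and other short genes by -0.36, -0.28 and -0.23. When the trend with length was estimated in each library from the other protein coding genes and removed, a step added after the data had been seen, the median of the members was 0.13 for the inhibitor in reconstituted tumours, -0.15 for MAVS in control tumours and 0.18 for the interaction. In that fit 64 of 79 members were positive in the first comparison, against 51.4% of all genes, 67 negative in the second, against 50.7%, and 63 positive in the third, against 51.9%. At an unadjusted p under 0.05, 30 were higher in the first, against 14.7%, 37 lower in the second, against 10.2%, and 33 higher in the third, against 11.5%. At an adjusted p under 0.05 edgeR called 0 members in each, against 0%, 0.384% and 0% of all genes. What set the trend with length was not tested, and the sources used here give no RNA integrity values.

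**Figure D4:**
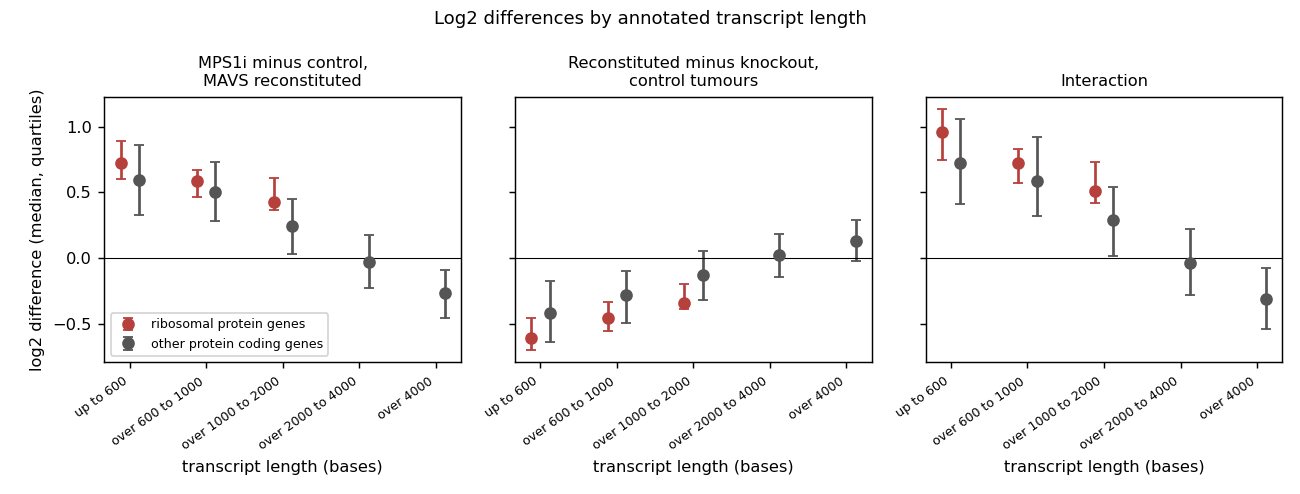
Median log2 difference (points) and quartiles (bars) by annotated transcript length in bases, for ribosomal protein genes (red) and other protein coding genes (grey), in 3 comparisons; bins with under 20 genes are not drawn. Short genes of both kinds lie above 0 in the left and right panels and below 0 in the middle one, and the median of the other protein coding genes has the other sign over 2000 bases.

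Both subunits showed these differences. Large and small subunit genes had medians of 0.56 and 0.63 for the inhibitor in reconstituted tumours, -0.41 and -0.49 for MAVS in control tumours and 0.72 and 0.83 for the interaction. Small subunit genes are shorter, with a median of 704.5 bases against 834. Among genes of up to 600 bases the medians were 0.73 (10 large) and 0.71 (12 small) for the inhibitor, -0.60 for both in control tumours and 0.96 and 0.94 for the interaction. Over 600 and up to 1000 bases (20 large, 13 small) they were 0.59 and 0.62, -0.44 and -0.49, and 0.72 and 0.81. Over 1000 and up to 2000 bases (16 large, 4 small) they were 0.41 and 0.56, -0.325 and -0.37, and 0.485 and 0.64, so the small subunit lay farther from 0 in these longer bins. The ratio of large to small subunit counts was 1.71, 1.68 and 1.59 in reconstituted controls and 1.51, 1.54 and 1.57 in knockout controls, and these ranges do not overlap. It was 1.65, 1.57 and 1.57 in knockout MPS1i tumours and 1.53, 1.52 and 1.63 in reconstituted MPS1i tumours.

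Per kilobase of transcript, the levels of the members spanned a wide range. Rps24, Rps9 and Rpl23a were highest, with means over the 12 libraries of 1668, 1642 and 1428 CPM per kilobase, and Rpl3l, Rpl39l and Rpl29 lowest, with 0.927, 4.59 and 33.0 CPM per kilobase. Rps15a also ranked low, at 68.1 CPM per kilobase, but its annotated length of 5179 bases is the longest of all members, which makes this level uncertain. The genes that varied least on the log2 CPM scale were Rpl4, Rpl5 and Rpl12. Rpl4, part of which lines the exit tunnel, held 1397 to 1417 CPM in knockout controls, 1302 to 1431 CPM in knockout MPS1i tumours, 1260 to 1301 CPM in reconstituted controls and 1319 to 1696 CPM in reconstituted MPS1i tumours. Its reconstituted controls lay below all knockout controls, and its reconstituted MPS1i libraries above all reconstituted controls. Across 77 members (without Rpl3l, Rpl39l and Rpl32l), Pearson's r between log2 transcript length and the SD of log2 CPM over libraries was -0.46. It was -0.61 with coding length; these points share the same 12 libraries, and genes are not independent replicates.

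Of the tissue-restricted paralogs, Rpl3l did not follow the other members, and Rpl39l departed from them mainly in reconstituted MPS1i library 1. Rpl3l takes the place of Rpl3 in striated muscle. It measured 0.724, 0.405 and 0.373 CPM in knockout controls, 1.78, 0.751 and 0.856 CPM in knockout MPS1i tumours, 1.23, 0.338 and 0.740 CPM in reconstituted controls and 4.78, 0.828 and 0.588 CPM in reconstituted MPS1i tumours. The highest libraries were those with the highest sums of the 14 skeletal muscle markers, in the same order: reconstituted MPS1i 1 (3314.5 CPM), knockout MPS1i 1 (894 CPM) and reconstituted control 1 (858 CPM). The lowest, reconstituted control 2, had the lowest sum at 7.30 CPM. The log2 difference of Rpl3l for the inhibitor in reconstituted tumours was 1.42 ± 0.752 (edgeR adjusted p = 0.209) and turned to -0.11 without reconstituted MPS1i library 1. The part of muscle in this value was not tested.

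Rpl39l, the paralog of Rpl39 best known from the testis, was the only tested member at its lowest in reconstituted MPS1i library 1, the library where 78 others were at their highest. It measured 6.25, 4.62 and 3.45 CPM in knockout controls, 2.81, 4.05 and 4.91 CPM in knockout MPS1i tumours, 1.80, 2.12 and 3.77 CPM in reconstituted controls and 0.336, 5.99 and 4.24 CPM in reconstituted MPS1i tumours. In library 1 of the last group its counts were 0.164% of those of Rpl39, against 1.92% to 3.45% in the other 11 libraries. The log2 difference for the inhibitor in reconstituted tumours was 0.46 ± 0.685 (edgeR adjusted p = 0.666). It was 1.00 without library 1 and -0.16 without library 2. The MAVS difference of Rpl39l in control tumours was -0.90, of the same sign as for most members.

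Rps27l, a paralog of Rps27 that is known as a p53 target, followed the other members with a smaller range. It measured 45.5, 48.7 and 54.2 CPM in reconstituted controls and 81.8, 74.8 and 52.3 CPM with the inhibitor, with a log2 difference of 0.49 ± 0.166 against 0.94 ± 0.239 for Rps27. Its counts were 45.8%, 47.3% and 40.2% of those of Rps27 in reconstituted controls and 33.8%, 32.7% and 36.0% in knockout controls, which do not overlap. Rpl32l held 3 to 13 counts per library, and Rpl10l, the paralog of Rpl10 known from the testis, 2 counts in 1 library. Rps4l, listed as a transcribed pseudogene, held 132 to 368 counts per library.

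**Figure D5:**
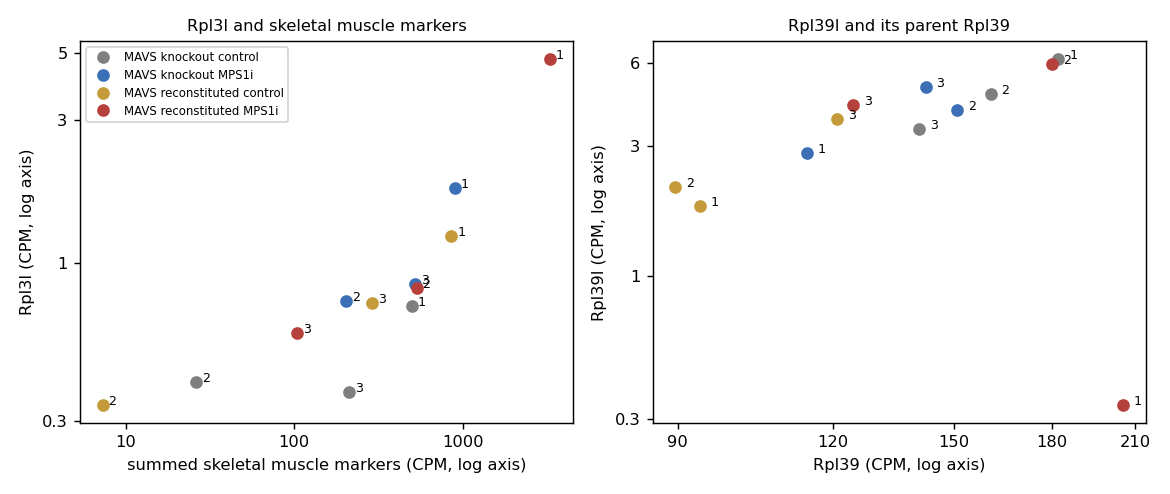
CPM of Rpl3l against the summed CPM of 14 skeletal muscle markers (left) and CPM of Rpl39l against Rpl39 (right), 1 point per library on log axes, coloured by group and numbered within it. Reconstituted MPS1i library 1 is at the upper right for Rpl3l (4.78 CPM) and alone at the lower right for Rpl39l (0.336 CPM).

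Other genes of ribosome production were compared by lists. The 9 ribosomal proteins outside the symbol rule had medians of 0.65 for the inhibitor in reconstituted tumours and -0.44 for MAVS in control tumours, with 0 called by edgeR. At an unadjusted p under 0.05, 7 were higher in the first, against 17.6% of all genes, and 5 lower in the second, against 9.89%. Fau, which encodes a fusion of a ubiquitin-like protein with a small subunit protein, measured 231, 262 and 327 CPM in reconstituted controls and 690, 498 and 363 CPM with the inhibitor. Rpl22l1, the paralog of Rpl22, measured 60.5, 48.6 and 44.7 CPM in knockout controls and 19.9, 19.9 and 34.8 CPM in reconstituted controls, which do not overlap (log2 difference -1.04 ± 0.280, edgeR adjusted p = 0.158). The 78 mitochondrial ribosomal proteins, which build the separate ribosome of mitochondria, had medians of 0.34 and -0.21 in these comparisons, with 0 called and, at an unadjusted p under 0.05, 50 higher in the first and 21 lower in the second, against the same 17.6% and 9.89%. The 15 transcripts that host small nucleolar RNAs had 0.43 and -0.35, with Zfas1 at 0.98 ± 0.255 in the first and Snhg6 at -0.72 ± 0.208 in the second. The 21 other genes with terminal oligopyrimidine tracts, mostly translation factors, had 0.17 and -0.09, with Eif3k at 0.76 ± 0.198 and Tpt1 at -0.35 ± 0.137.

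Lists of genes that make or control ribosomes without being part of them had medians closer to 0 or of the other sign. The 32 ribosome biogenesis factors had -0.16 for the inhibitor in reconstituted tumours and 0.10 for MAVS in control tumours, with Utp20, part of the small subunit processome, at -0.47 ± 0.105 in the first (edgeR adjusted p = 0.0729). The 14 genes of RNA polymerase I, which transcribes ribosomal RNA, had -0.08 and 0.06, and the 18 genes of mTORC1 and its translation targets -0.11 and 0.05, with Eif4ebp1, a repressor of cap-dependent translation, at 0.56 ± 0.134 and -0.45 ± 0.134. The 10 genes of the Myc network had 0.11 and 0.05. The edgeR test called 0 genes of these lists in these comparisons. Under the inhibitor it called Mxd1, a Myc antagonist, as higher in reconstituted than in knockout tumours (0.85 ± 0.144, adjusted p = 0.0317), with 83.7, 87.3 and 88.8 CPM against 182, 131 and 154 CPM, which do not overlap. The median transcript lengths were 583 bases for the ribosomal proteins outside the rule, 672 for the small nucleolar RNA hosts, 1253 for mitochondrial ribosomal proteins and 1794 for the other tract genes. They were 2297 bases for RNA polymerase I, 2507 for the Myc network, 2630 for biogenesis factors and 3344 for the mTORC1 list. The part of length in these medians was not tested.

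Markers of cell types were read beside the members. The 11 epithelial markers summed to 7629 to 8058 CPM in knockout controls, 7505 to 8348 CPM in knockout MPS1i tumours, 6503 to 6927 CPM in reconstituted controls and 7067, 7794 and 10327 CPM in reconstituted MPS1i libraries 3, 2 and 1, the same order as the share of ribosomal protein counts in the last group. The macrophage and skeletal muscle sums had that order in the same group too, at 2475, 2486 and 3516 CPM and at 104, 535 and 3314.5 CPM in libraries 3, 2 and 1. So did the red blood cell sums, at 50.6, 99.5 and 112 CPM, and the B and plasma cell sums, at 7.35, 11.5 and 12.3 CPM. Single markers of these lists differed. Krt8 and C1qa kept the order, whereas the epithelial Cdh1 measured 240, 207 and 172 CPM and the macrophage marker Adgre1 75.4, 65.6 and 42.2 CPM. The fibroblast and pericyte sums, at 8132, 9953 and 3375 CPM, and the endothelial sums, at 192, 252 and 213 CPM, did not have that order. Nor did the T cell, natural killer and cytotoxic, neutrophil and adipocyte sums. In the MAVS difference averaged over treatments, edgeR called 2 of the 8 tested epithelial markers as lower, against 0.47% of all genes. The 11 macrophage markers summed to 2415 to 3082, 2056 to 2511, 2099 to 2384 and 2475 to 3516 CPM in the 4 groups. The 10 natural killer and cytotoxic markers summed to 25.7 to 52.9 CPM in the 6 knockout libraries and 76.1 to 144 CPM in the 6 reconstituted ones. These sums do not overlap, whereas the ribosomal protein share of the genotypes overlapped. Single markers of this list differed too. Gzma, Gzmb, Prf1 and Ncr1 did not overlap between the genotypes, whereas Klrb1c, Klrk1, Nkg7, Klrd1, Klre1 and Eomes did. Under the inhibitor 9 of the 10 lay higher in reconstituted tumours, against 51.1% of all genes. There edgeR called 3 of the 10 as higher at an adjusted p under 0.05, against 0.52% of all genes. In the MAVS difference averaged over treatments it also called 3 of the 10 as higher, against 1.09%. Eomes measured 13.7, 13.6 and 14.5 CPM in reconstituted MPS1i libraries, all below the lowest knockout MPS1i library at 14.8 CPM. The 12 T cell markers summed to 21.7 to 38.5 CPM in reconstituted controls and 35.3 to 52.6 CPM with the inhibitor. All 12 had a positive log2 difference there, against 49.5% of all genes, with a median of 0.89. At an unadjusted p under 0.05 edgeR gave 6 as higher, against 17.6% of all genes. It called 0 of them, and 0% of all genes. The 9 red blood cell markers summed to 49.4, 149 and 237 CPM in knockout controls and 32.5, 53.5 and 43.9 CPM in reconstituted controls. The sum of knockout control library 1 thus lay within the range of the reconstituted controls. The 5 that passed the filter were all lower in the reconstituted controls at an unadjusted p under 0.05, against 9.89% of all genes. Their median was -1.85, and edgeR called 0, against 0.14% of all genes. Hba-a1 and Hbb-bs had close values in each library, so not all of the 5 are separate observations. The part of cell composition in the results was not tested.

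Runs of C or T were more common among members than among other genes, and members with and without a long run had similar medians. A RefSeq window was found for 61 members. A run of at least 8 C or T on the gene strand within 25 bases of a start was present in 33 of them (54.1%), against 21.9% of other protein coding genes, and the longest was 21 bases, in Rpl7a. A C at the start followed by 4 C or T was present in 14 (23%), against 2.59%. The 33 with a run of at least 8 and the 27 tested members with a shorter one had medians of 0.56 and 0.63 for the inhibitor in reconstituted tumours and -0.42 and -0.45 for MAVS in control tumours, with median lengths of 819 and 835 bases. In the windows from 250 bases before to 50 bases after the start, read on both strands, CCGGAAGT (an ETS family motif) was present in 19.7% of members against 5.64% of other protein coding genes, TGACGTCA (the cyclic AMP response element) in 8.2% against 2.52%, AAGATGG (a YY1 motif) in 14.8% against 7.13%, GGGCGG (a GC box) in 59% against 49.2% and CACGTG (the E-box bound by Myc) in 9.84% against 8.92%. TATAAA on the gene strand was present in 9.84% against 9.81%. A match describes these letters in this window and is not a binding site.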

How the data were processed

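RNA of subcutaneous 393P tumours was sequenced after poly(A) selection with a stranded kit, per the labels' protocols. The counts per gene analysed here were deposited by the authors as whole numbers in 1 table of 12 libraries. Trimmomatic, HISAT2 and StringTie and the build GRCm38 (mm10) are named in the submitters' processing notes without versions; the sources used here give neither the counting tool nor the use of strand. The table held 0 value columns without a sample.

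Groups were taken from the labels. Genes were kept with filterByExpr, scaled by TMM and fitted as 4 groups over all 12 libraries with edgeR 4.0.16 (quasi-likelihood test; R 4.3.3), with Benjamini-Hochberg adjustment over all genes tested and a threshold of 0.05. The code was tested on simulated data. A log2 difference is positive where the inhibitor or the reconstituted group is higher. DESeq2 1.42.0, limma-voom (limma 3.58.1), other scalings, no filter, left-out libraries, a replicate block and, added after seeing the data, removal of the length trend were alternatives. Lengths are medians over a gene's transcripts in the GENCODE annotation of the build. Start windows come from RefSeq, and 20 members without one there are not described by sequence.

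Named genes were the 3 members with the smallest p in each comparison, the highest and lowest per kilobase, the most and least variable, fixed members of known function, the paralogs, and the leading gene of each related list. Rpl37a, Rpl7a, Rps15a and Rps18 were named after their values were seen. Members and lists were chosen with earlier results of these data known.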

Additional observations from a re-analysis of the deposited data

How the results depend on the processing

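Under RLE size factors, library totals alone, TMM without the ribosomal protein rows, no filter on low counts, pseudogene rows added to the members and fits of only the groups compared, each count of called members stayed at 0 and each named value (101, or 65 in the fits of only the groups compared) kept its sign and side of the threshold. The calls depended on the tool and on single libraries. DESeq2 called 71 members for the inhibitor in reconstituted tumours, 19 for MAVS in control tumours and 45 for the interaction, and it put 48 named values past the threshold. With 1 library left out, calls ran from 0 to 77 for the inhibitor in reconstituted tumours, 0 to 35 for MAVS under the inhibitor and 0 to 73 for the interaction, each highest without reconstituted MPS1i library 3, and from 0 to 0 in the other comparisons. The medians then ran from -0.21 to -0.04 (inhibitor, knockout), 0.40 to 0.77 (inhibitor, reconstituted), -0.51 to -0.36 (MAVS, controls), 0.11 to 0.47 (MAVS, inhibitor), 0.55 to 0.92 (interaction), -0.17 to 0.02 (MAVS averaged, positive without reconstituted MPS1i library 3) and 0.12 to 0.31 (inhibitor averaged). The share of counts ran from 4.53% to 4.82%, 4.17% to 4.59%, 3.58% to 3.74% and 4.60% to 5.65% in knockout control, knockout MPS1i, reconstituted control and reconstituted MPS1i tumours.

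Removing the length trend moved the medians to 0.13 (inhibitor, reconstituted), -0.15 (MAVS, controls), 0.0433 (MAVS, inhibitor) and 0.18 (interaction). It turned the inhibitor difference in reconstituted tumours of Rpl11 to -0.0848, Rpl32 to -0.11, Rps27l to -0.0813, Rpl4 to -0.0165 and Rpl12 to -0.0698. It turned the MAVS difference in controls of Rpl11 to 0.0478, Rpl32 to 0.18 and Rps27l to 0.0127. It turned the interaction of Rpl11 to -0.11, Rpl32 to -0.21, Rps6 to -0.00317, Rpl3l to -0.29, Rps27l to -0.0726, Rpl4 to -0.0141 and Rpl12 to -0.11. With limma-voom Rpl39l was at -0.13 for the inhibitor in reconstituted tumours and Rpl3l at -0.19 for the interaction. With a library left out, the inhibitor difference in reconstituted tumours ran from -0.11 to 1.93 for Rpl3l and -0.16 to 1.00 for Rpl39l, the MAVS difference in controls from -0.00161 to 0.0963 for Rpl5, and the interaction from -0.00345 to 0.21 for Rpl5 and -1.29 to 0.75 for Rpl3l. The cause was not tested.

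Whether the replicate numbers pair the libraries was not settled. Of 18 pairs of groups with the same number, 9 correlated above 0.1 (-0.11 to 0.31), and 6 of 12 libraries correlated best with their own number. Pairs with unlike numbers were not summarised beside these values, so a batch shared by number can be neither shown nor excluded. With the replicate number as a block edgeR called 0 members in each comparison, the medians were 0.58 for the inhibitor in reconstituted tumours and -0.44 for MAVS in controls, and Rpl3l turned to -0.032 in the interaction. At these depths counting error was small for all members but Rpl3l, Rpl39l, Rpl32l and Rpl10l, and 3 libraries per group set the precision.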
